A study of Mus musculus with 75 samples.

Results

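Msln, Upk3b, Upk1b, Lrrn4 and Wt1, 5 genes of the serosal mesothelium, were followed across every library of a study of mouse enteric glia. They were taken by symbol from both deposited count tables, where they are 5 of 21051 rows in the table of the untreated and 2 h libraries and 5 of 21076 rows in the 24 h table. The set was chosen by the measured difference in counts between myenteric and submucosal libraries of untreated mice, so that difference is described here without a test. Region, treatment and genotype were tested.

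The mesothelium is the single sheet of flattened cells that covers the outer face of the gut and lines the body cavity. It lies on the longitudinal muscle, close to the myenteric plexus, the nerve network between the muscle layers, and far from the submucosal plexus, the nerve network beneath the mucosa. Mesothelial cells give a gliding surface, secrete lubricant and matrix proteins, and take part in peritoneal inflammation and repair. Msln encodes mesothelin, a cell-surface glycoprotein anchored in the membrane by a lipid. Upk3b and Upk1b encode uroplakins, membrane proteins best known from the lining of the bladder; Upk1b is a tetraspanin. Lrrn4 encodes a transmembrane protein with leucine-rich repeats. Wt1 encodes a zinc-finger transcription factor of embryonic and adult mesothelium.

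The series holds 75 libraries in 16 groups, prepared with Smart-seq2, a full-length cDNA method for small RNA inputs, from samples labelled as enteric glial cells (EGC) of adult mice. How the cells were taken from the tissue is not given in the sources used here. The untreated animals carried a transgenic green fluorescent protein reporter that marks glia, and gave 5 colon and 6 small intestine libraries of the myenteric plexus (MP) and 5 colon and 6 small intestine libraries of the submucosal plexus (SMP). The untreated and 2 h libraries are labelled wild type. The 2 h experiment used such reporter mice given lipopolysaccharide (LPS, a bacterial cell-wall component that sets off systemic inflammation; 2 mg/kg) or phosphate-buffered saline (PBS), with 4 myenteric libraries in each of the colon and small intestine groups. The 24 h experiment used reporter mice that were Gpr37WT (wild type) or Gpr37-/- (knockout), a receptor gene deletion, given LPS or PBS, with 4 to 6 myenteric libraries in each group. All of these groups carry the reporter transgene. Submucosal libraries exist only for untreated mice.

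Library totals ran from 2547296 to 9002546 counts in the untreated, from 1990744 to 7883251 in the 2 h and from 2882539 to 33283346 in the 24 h experiment, so 3 counts, taken as the floor, correspond to between 0.0901 and 1.51 CPM (counts scaled to a common library total). Levels below are CPM after TMM scaling, a correction for RNA composition. Gpr37 had at most 9 counts in any knockout library and group means between 2.25 and 11.8 CPM in the wild-type groups at 24 h, of which the LPS groups held libraries at 0. S100b, a glial marker, ran from 276 to 572 CPM in the myenteric and from 37 to 127 CPM in the submucosal libraries of the untreated colon, and from 371 to 604 CPM and from 11.9 to 94.9 CPM in those of the small intestine. In bulk libraries fewer cells of a type and less RNA per cell cannot be told apart. The labels number the mice at 24 h and give a sex and a number elsewhere; where they do not say that libraries came from separate animals, p-values measure the spread between libraries, which may be technical.

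Of the 5 genes, 2 had a promoter in the RefSeq table used here, so only their sequences are shown. Each runs 5′ to 3′ from 250 bases before to 50 bases after the RefSeq start of the gene on build GRCm38.p6; capitals mark matches of 2 motifs chosen after the sequences were seen. These are GGAATG, the core recognised by TEAD factors, and GNGTGGGNG, the pattern read by zinc fingers of the WT1 and EGR type, each searched on both strands.
Lrrn4, minus strand, chr2:132880813-132881112: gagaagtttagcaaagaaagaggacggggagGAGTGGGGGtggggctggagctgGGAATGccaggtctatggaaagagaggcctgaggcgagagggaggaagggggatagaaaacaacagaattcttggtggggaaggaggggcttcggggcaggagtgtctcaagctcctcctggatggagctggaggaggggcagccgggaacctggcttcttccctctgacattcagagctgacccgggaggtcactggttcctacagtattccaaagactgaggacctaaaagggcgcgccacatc
Upk3b, plus strand, chr5:136038246-136038545: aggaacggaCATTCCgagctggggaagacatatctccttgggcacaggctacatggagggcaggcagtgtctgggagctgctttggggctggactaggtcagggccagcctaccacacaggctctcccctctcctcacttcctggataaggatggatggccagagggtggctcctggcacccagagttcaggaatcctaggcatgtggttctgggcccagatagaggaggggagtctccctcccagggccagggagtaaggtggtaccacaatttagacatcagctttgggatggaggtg
The Lrrn4 promoter held 1 match of GNGTGGGNG, beginning at position -219 from the start, and 1 of GGAATG at -196. The Upk3b promoter held 1 match of the TEAD core, as CATTCC on the strand shown, at -241 and none of GNGTGGGNG. Of 32851 promoters of 300 bases, 14.7% held GGAATG and 14.3% held GNGTGGGNG, so such matches are common. In the GENCODE M21 annotation of GRCm38, Msln lies on chromosome 17 at 25748613 to 25754378 (minus strand, 15 exonic blocks), Upk1b on chromosome 16 at 38773184 to 38800328 (minus strand), Upk3b on chromosome 5 at 136038496 to 136046487 (plus strand), Lrrn4 on chromosome 2 at 132868305 to 132880891 (minus strand) and Wt1 on chromosome 2 at 105126529 to 105173616 (plus strand). Wt1os, on the strand opposite to Wt1, begins 18 bases from its start and runs the other way, and Crls1, a mitochondrial cardiolipin synthase gene, converges on Lrrn4 from the other strand with 1519 bases between them in GENCODE M21 and 101 shared bases in RefSeq. Whether reads were counted by strand is not given in the sources used here, so reads of these neighbours could not be told apart where they overlap.

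In untreated mice the 5 genes were carried by most myenteric libraries, and Msln, Upk3b, Lrrn4 and Wt1 were at or near 0 in submucosal ones. Upk1b was low but present in most submucosal libraries, and had 0 counts in the colon myenteric libraries of F2 and F3. Msln had 0 counts in each of the 11 submucosal libraries. Its level was 321, 48.1, 42.2, 0.327 and 8.05 CPM in the colon myenteric libraries of the mice labelled M1, M2, M3, F2 and F3, and 168, 75.0, 17.4, 25.7, 20.5 and 4.57 CPM in the small intestine myenteric libraries of M1, M2, M3, F1, F2 and F3. Every myenteric library was above every submucosal one for Msln, although F2 in the colon rested on 2 counts. Taking 3 counts per library as the submucosal level, the myenteric group mean was at least 139-fold higher for colon and at least 83.4-fold higher for small intestine. Without the myenteric library of M1 these bounds fell to 40.7-fold and 46.1-fold.

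Upk3b had at most 2 counts in a submucosal library. It stood at 279, 39.3, 37.03, 0 and 4.73 CPM in colon myenteric libraries (M1, M2, M3, F2, F3), a mean at least 119-fold above the floor, and at 159, 98.8, 42.5, 13.5, 36.3 and 4.14 CPM in the small intestine (M1, M2, M3, F1, F2, F3), a mean at least 95.1-fold above it. Lrrn4 had at most 2 submucosal counts, and its myenteric mean was higher at least 66.2-fold (colon) and at least 42.6-fold (small intestine). Wt1, with at most 3 submucosal counts, was at least 29.5-fold and at least 11.7-fold higher. Without the myenteric library of M1 the colon bounds were 33.5-fold for Upk3b, 28.4-fold for Lrrn4 and 9.95-fold for Wt1, and those of the small intestine 62.9-fold, 28.2-fold and 9.42-fold. Upk1b was the member that submucosal libraries did carry, with up to 31 counts, or 0.195 to 6.56 CPM in the small intestine and 0 to 4.18 CPM in the colon. Its myenteric mean was 17.6-fold higher for colon and 11.6-fold higher for small intestine, and these values fell to 4.59-fold and 5.64-fold without the myenteric library of M1, while the small intestine value was 18.2-fold without the submucosal library of M1.

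The groups did not overlap for 3 of 5 members in the small intestine (Msln, Upk3b and Lrrn4) and for Msln alone in the colon. Over all genes tested, 12.1% and 7.15% were higher in myenteric libraries without overlap. The colon count rose to 4, and the share of all genes to 8.43%, without the library of F2, in which Upk3b, Upk1b, Lrrn4 and Wt1 all had 0 counts. The spread within the myenteric groups was wide: the 5 genes summed to between 0.327 and 957 CPM for colon and between 14.8 and 508 CPM for small intestine, with M1 the highest in both. In the colon the 3 male libraries (124, 163 and 957 CPM in sum) stood above the 2 female ones (0.327 and 28.2 CPM), whereas in the small intestine the sexes overlapped; this order was seen after the values were known and was not tested.

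**Figure D1:**
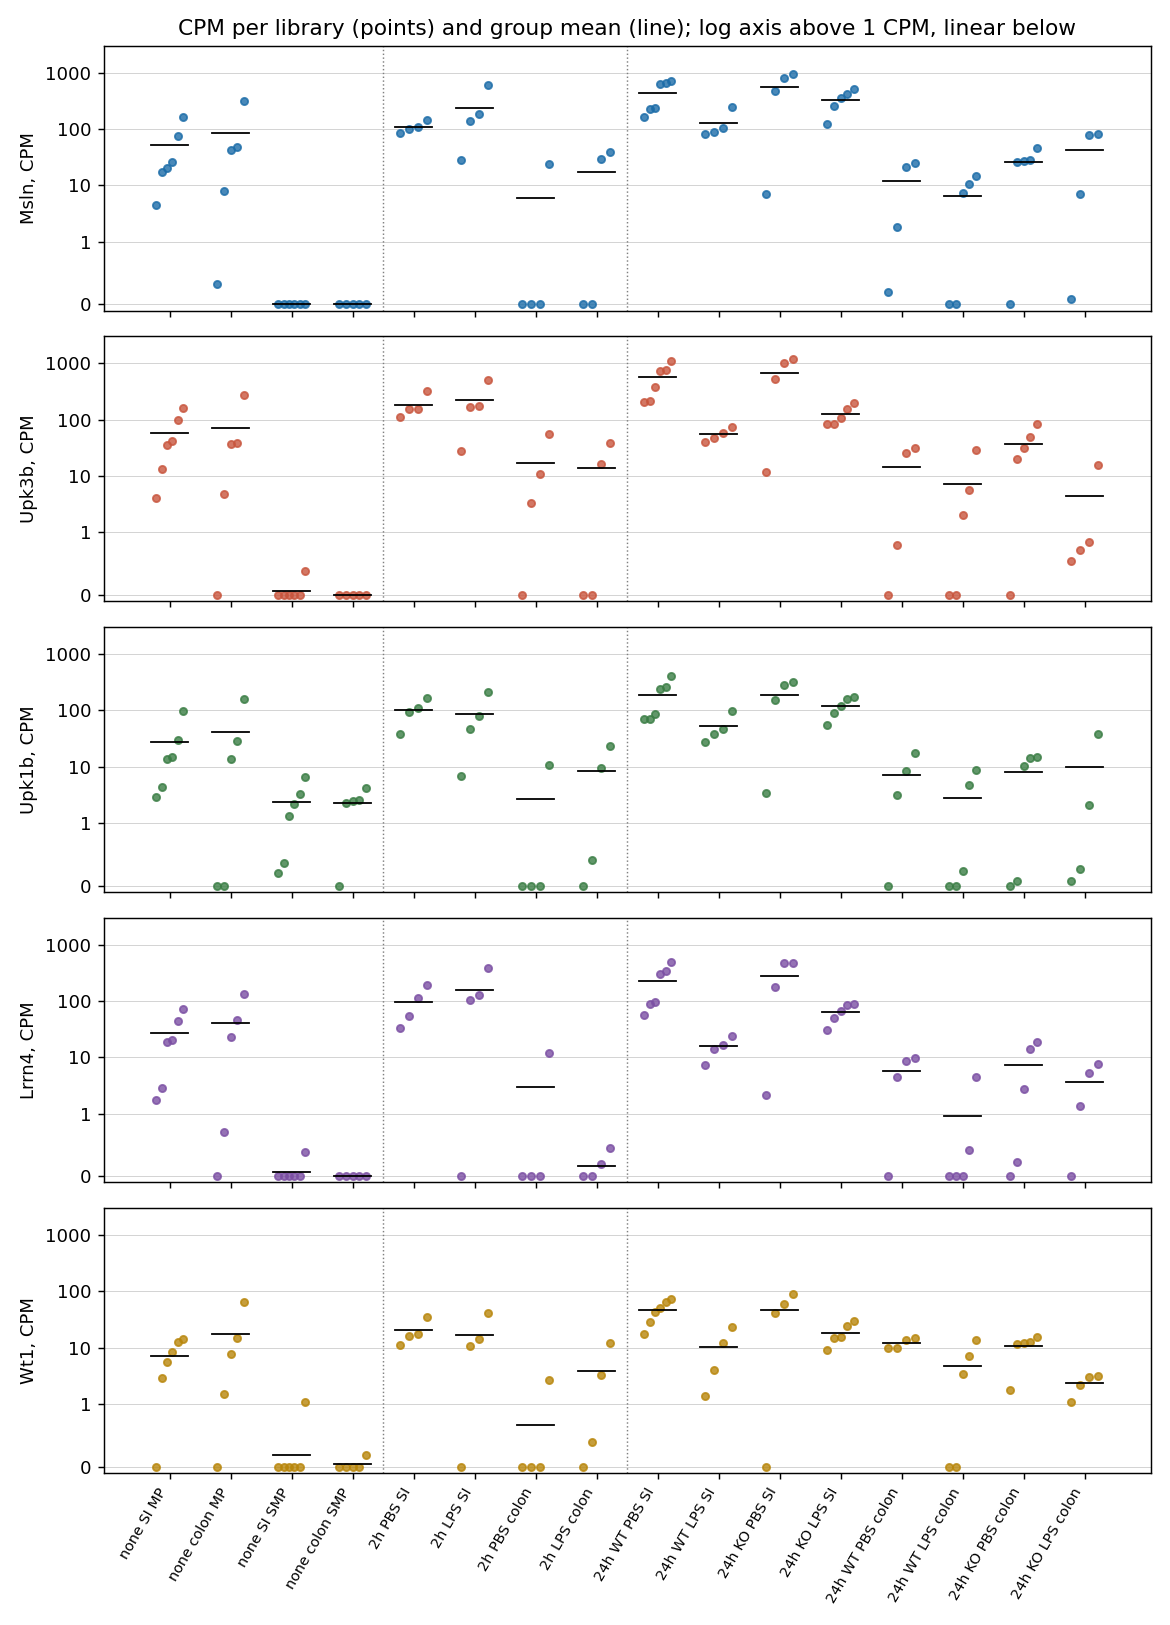
CPM of each of the 5 genes in every library (points) with the group mean (line), for 16 groups named by treatment (none: untreated), genotype, region and layer; the vertical axis is logarithmic above 1 CPM and linear below, and dotted lines part the 3 experiments. Submucosal groups lie at 0 for Msln and at or below 6.56 CPM for Upk1b, and the group means of the small intestine lie above those of the colon at 2 h and 24 h.

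Other genes linked to mesothelium moved in part with them. Of 18 such genes, 7 were called higher in myenteric than in submucosal libraries of the colon and none lower; in the small intestine 7 were called higher and 5 lower (edgeR quasi-likelihood test, Benjamini-Hochberg adjusted p under 0.05 over all genes). Of all genes, 11.1% were called higher in the colon comparison, and 21.2% were called higher and 22.3% lower in that of the small intestine. The median log2 difference of the list was 0.53 for colon and 1.26 for small intestine, against 0.01 and -0.06 over all genes. Nkain4, Rspo1 (a secreted Wnt enhancer), Bnc1 (a zinc-finger factor) and Gpm6a were higher in both regions. Gpm6a, and Calb2 and Efemp1 among those higher in the small intestine, are also expressed by neurons or fibroblasts. The 5 lower genes, Cldn15, Krt8, Krt18, Krt19 and Gata6, are also expressed by epithelium, whose 5 marker genes summed to between 1298 and 7205 CPM in submucosal and between 4.0 and 216.4 CPM in myenteric small intestine libraries. Markers of smooth muscle, the tissue beneath the mesothelium, were also higher in myenteric libraries, all 6 of 6 in both regions: they summed to between 7099 and 22793 CPM against between 792.5 and 3267 CPM in the colon, and to between 1190 and 8337 CPM against between 72.6 and 1058 CPM in the small intestine. Of the neuronal markers 4 of 5 were higher in myenteric colon and 5 of 5 in myenteric small intestine, where they summed to between 471.8 and 1524 CPM against between 28.1 and 104.4 CPM. Markers of interstitial cells of Cajal, the pacemaker cells of gut muscle, were higher for 3 of 3 and 2 of 3 genes, endothelial markers for 1 of 4 and 4 of 4, and glial markers for 4 of 6 and 6 of 6. Macrophage and lymphocyte markers were lower in myenteric libraries, 4 of 4 each in both regions; in the small intestine they summed to between 56.6 and 1089 CPM against 977.7 to 5702 CPM (macrophages) and to between 0.223 and 6.86 CPM against 168.6 to 1211 CPM (lymphocytes). The mitochondrial share of counts was 11.6% to 18.8% in myenteric and 2.84% to 9.43% in submucosal small intestine, and 5.35% to 16.5% against 4.02% to 7.18% in the colon. The part of these cell types and of the mitochondrial share in the layer difference was not tested.

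Next, the colon was compared with the small intestine within the myenteric plexus. At 24 h all 5 genes were lower in the colon, averaged over genotype and treatment. The log2 fold change was -4.23 ± 0.69 (SE) for Msln (adjusted p = 0.0003, edgeR over 14903 genes), -4.31 ± 0.72 for Upk3b (adjusted p = 0.00036), -4.29 ± 0.72 for Upk1b (adjusted p = 0.00036), -4.78 ± 0.69 for Lrrn4 (adjusted p = 5.3e-05) and -2.02 ± 0.49 for Wt1 (adjusted p = 0.0081). Of all genes tested, 5.16% were called lower in the colon. With the mouse as a block, over the 15 of 22 mice that gave both regions, 4 of 5 stayed called, beside 3.1% of all genes called lower, and Wt1 did not (-1.87 ± 0.69, adjusted p = 0.149).

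In wild-type mice given PBS, Msln was at 704, 624, 660, 165, 224 and 242 CPM in the small intestine of mice 22, 19, 23, 24, 9 and 14, and at 24.8, 1.82, 21.1 and 0.193 CPM in the colon of mice 14, 19, 22 and 24. Every small intestine library was above every colon library for all 5 genes in this group; the means differed 36.4-fold for Msln, 38.6-fold for Upk3b, 26.2-fold for Upk1b, 39.8-fold for Lrrn4 and 3.82-fold for Wt1. The colon means of Msln, Upk3b and Upk1b came mostly from mice 14 and 22, so these folds depend on single colon libraries. The regions did not overlap for 5 of 5 genes in the knockout LPS group and for 4 of 5 in the wild-type LPS group, Wt1 being the exception. Among all genes, 2.96% (wild-type PBS), 2.21% (knockout LPS) and 2.46% (wild-type LPS) were lower in the colon without overlap. In the knockout PBS group, where 1.23% of all genes were lower without overlap, the regions overlapped for all 5 genes: the small intestine library of mouse 7 (7.01 CPM of Msln) stood far below the other 3 (469, 806 and 969 CPM).

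Within single mice the order held in nearly all cases. The small intestine was higher in 15 of 15 mice for Upk1b and Lrrn4, in 14 of 15 for Msln and Upk3b, with mouse 7 the exception, and in 12 of 15 for Wt1, with mice 3, 7 and 8 the exceptions. The small intestine library called mouse 7 carries no mouse tag in the labels, and its number was read from its description. Wt1 had the smallest regional estimate of the 5 genes at 24 h. After PBS at that time its wild-type colon libraries had 10.1, 15.0, 9.80 and 13.6 CPM (mice 14, 19, 22 and 24), while Upk3b in the same libraries was at 25.4, 0.794, 32.0 and 0 CPM. Mice 19 and 24 thus held Wt1 in the colon with almost no Upk3b.

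**Figure D2:**
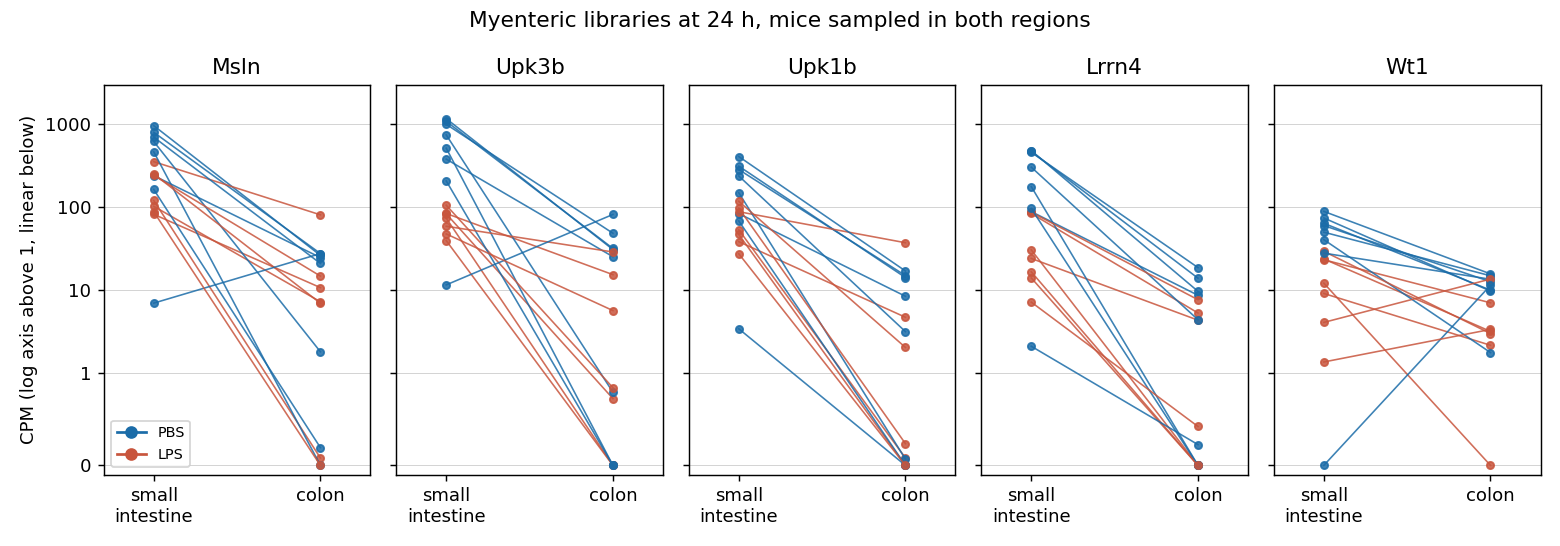
CPM of each gene in the small intestine and colon libraries of the 15 mice sampled in both regions at 24 h, 1 line per mouse, blue after PBS and red after LPS; the axis is logarithmic above 1 CPM. Lines fall towards the colon in 12 to 15 of 15 mice, and the line that rises for Msln and Upk3b is mouse 7.

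At 2 h the regional difference had the same direction, and 3 of 5 genes were called lower in the colon, beside 2.07% of all genes: Lrrn4 (-7.28 ± 1.31, adjusted p = 0.0065), Upk1b (-4.34 ± 1.07, adjusted p = 0.034) and Upk3b (-3.70 ± 0.99, adjusted p = 0.045). Msln (-4.01 ± 1.11, adjusted p = 0.053) and Wt1 (-3.51 ± 1.25, adjusted p = 0.14) missed the threshold. The Lrrn4 estimate depends on the prior count, since all 4 colon libraries after LPS had at most 3 counts; there Lrrn4 was at least 184-fold lower, or at least 91.4-fold without the small intestine library of M2. After PBS, Msln was at 143, 99.9, 109 and 83.8 CPM in the small intestine (F1, M2, F3, M4) and at 0, 0, 23.7 and 0 CPM in the colon. None of the 5 genes overlapped between the regions after PBS, where 4.95% of all genes were lower in the colon without overlap. All 5 overlapped after LPS, where 3.62% of all genes were lower without overlap and the small intestine library of F1 was low for each gene (27.8 CPM of Msln, and 0 counts of Lrrn4 and Wt1). The Lrrn4 call at 2 h held without any single library, and those of Upk1b and Upk3b did not. Upk3b was also not called with the animal label as a block (adjusted p = 0.058, edgeR) or with sex as a covariate. Over the 16 fits that each left 1 library out, Lrrn4 was called in 16, Upk1b in 7, Upk3b in 2, Msln in 1 and Wt1 in 0, and no fit gave 3 calls: 8 fits gave 1, 7 gave 2 and 1 gave 4. The 8 fits with 1 call were those without PBS colon F1, M2 or M4, PBS small intestine F1 or M4, LPS colon F3, or LPS small intestine M2 or M4. The estimates stayed negative, from -10.70 to -6.77 for Lrrn4, from -7.67 to -3.85 for Upk1b and from -4.66 to -3.28 for Upk3b.

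In the myenteric plexus of untreated mice no regional difference passed the test: 0 of 5 genes were called by edgeR or by DESeq2, beside 3.19% of all genes by edgeR, and 0 of 5 had an unadjusted p under 0.05, beside 16.6% of all genes. In the submucosal plexus Msln, Upk3b, Lrrn4 and Wt1 had at most 3 counts in a library, so a regional difference was not detectable at this depth. Upk1b, with 2.30 CPM on average in the colon and 2.32 CPM in the small intestine, was not called there, beside 5.18% of all genes called and 17.7% with an unadjusted p under 0.05. The fitted log2 fold changes for the myenteric plexus ran from 0.28 ± 1.04 for Upk3b to 1.30 ± 1.14 for Wt1, on the side of the colon, and their median, 0.60, turned to -0.33 with sex as a covariate and to -1.07 without the colon library of M1. At 2 h and 24 h the small intestine group means of Msln were 109 CPM or more, whereas the untreated mean was 51.8 CPM; the experiments were separate, and no level was compared across them by a test.

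Several other cell types also differed by region. At 24 h, 8 of the 18 other mesothelial genes were called lower in the colon and none higher (Rspo1 by -4.95 ± 0.49, Bnc1 by -5.48 ± 0.98, Muc16 by -3.60 ± 0.83 and Aldh1a2, a retinoic acid enzyme, by -2.78 ± 0.36, all on the log2 scale), and the list's median was -1.33 against 0.01 over all genes. Of all genes, 5.16% were called lower. At 2 h, 2 of the 18 (Nkain4 and Efemp1) were called lower and none higher, beside 2.07% of all genes called lower. The list's median was then -1.50 against -0.01. In untreated myenteric libraries none was called lower and Pdpn was called higher, beside 3.19% of all genes called in either direction. There the list's median was 0.85 against 0.01. All 5 neuronal markers were lower too, summing after wild-type PBS to between 285.8 and 694.9 CPM in the colon and between 779.9 and 1482 CPM in the small intestine. None of the 6 smooth muscle or 5 fibroblast markers was called at 24 h, while at 2 h 4 of 6 smooth muscle and 3 of 5 fibroblast markers were higher in the colon. Smooth muscle markers then summed, after PBS, to between 19382 and 72124 CPM for colon and between 2337 and 15329 CPM for small intestine. The part of these cell types in the regional difference was not tested.

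LPS at 2 h left no call among the 5 genes in either region, by edgeR or by DESeq2, and none had an unadjusted p under 0.05; of all genes, 1.1% were called for the small intestine and 0.778% for the colon, and 5.2% and 7.53% had an unadjusted p under 0.05. The median log2 fold change over the 5 genes was 0.26 for the small intestine, turning to -0.04 with sex as a covariate and to -0.58 without the LPS library of M2, and 1.61 for the colon. In the small intestine Upk3b was at 317, 153, 112 and 154 CPM after PBS and at 28.4, 512, 167 and 173 CPM after LPS (F1, M2, F3, M4 in each), so the LPS group lay on both sides of the PBS group. In the PBS colon only the library of F3 had counts of Msln, Upk1b, Lrrn4 and Wt1, so without it these 4 genes stood at 0 in the PBS group; without the LPS library of M2 the median was 0.39.

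At 24 h the 5 genes had lower means after LPS in the small intestine of wild-type mice, but none passed the threshold in the fit over all groups. Upk3b was at 1092, 749, 725, 209, 214 and 382 CPM after PBS (mice 22, 19, 23, 24, 9 and 14) and at 59.3, 47.9, 74.2 and 39.8 CPM after LPS (mice 3, 8, 16 and 13). Every LPS library was below every PBS library, and the mean was 10.2-fold lower (log2 fold change -3.34 ± 1.38, adjusted p = 0.14, edgeR). Lrrn4 was at 484, 306, 335, 97.0, 56.0 and 89.0 CPM after PBS and at 14.1, 7.20, 16.7 and 24.2 CPM after LPS in the same order of mice, again without overlap and 14.6-fold lower (-3.87 ± 1.31, adjusted p = 0.065). These 2 of 5 genes stand beside 7.21% of all genes that were lower without overlap and 2.99% that were called lower. Msln overlapped between the groups, at 704, 624, 660, 165, 224 and 242 CPM against 244, 88.7, 82.6 and 103 CPM (-1.75 ± 1.23, adjusted p = 0.44), as did Upk1b (-1.84 ± 1.27, adjusted p = 0.43) and Wt1 (-2.16 ± 0.99, adjusted p = 0.19).

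The count of calls differed between fits. A fit of the wild-type small intestine groups alone called 3 of 5 genes lower: Upk3b (-3.27 ± 0.51, adjusted p = 0.0018), Lrrn4 (-3.80 ± 0.67, adjusted p = 0.0040) and Msln (-1.67 ± 0.50, adjusted p = 0.046), beside 5.23% of all genes called lower in that fit. DESeq2 called Lrrn4 alone (-3.89 ± 1.28, adjusted p = 0.025), beside 6.94% of all genes called lower. In the edgeR fit over all groups, 3 of 5 genes (Upk3b, Lrrn4 and Wt1) were lower with an unadjusted p under 0.05, as were 11.6% of all genes.

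Knockout mice also had lower means after LPS in the small intestine, with no call by edgeR or DESeq2 and 0 of 5 unadjusted p under 0.05, beside 0.718% of all genes called and 11.5% with an unadjusted p under 0.05. Upk3b was at 1005, 1176, 518 and 11.6 CPM after PBS (mice 12, 15, 20 and 7) and at 83.6, 84.5, 199, 157 and 106 CPM after LPS (mice 11, 17, 10, 6 and 21), a log2 fold change of -2.43 ± 1.27 (adjusted p = 0.48). The estimate was -2.14 ± 1.15 for Lrrn4 (adjusted p = 0.50), -1.36 ± 0.94 for Wt1, -0.75 ± 1.20 for Msln and -0.68 ± 1.23 for Upk1b. Mouse 7 lay below all LPS libraries for each of the 5 genes, and the other 3 PBS libraries lay above all LPS libraries for Upk3b, Lrrn4 and Wt1. Without mouse 7 the count of genes called was also 0. In the colon none of the 5 genes was called after LPS in either genotype by edgeR or DESeq2, with medians of -1.31 in wild-type and -0.98 in knockout mice; Lrrn4 in wild-type and Upk3b and Wt1 in knockout mice had an unadjusted p under 0.05, beside 24.8% and 12.4% of all genes. Leaving out single libraries moved the wild-type median between -2.12 (without LPS mouse 3) and -0.55 (without PBS mouse 22) and the knockout median between -2.34 (without LPS mouse 17) and -0.10 (without PBS mouse 15). Of all genes, 7.96% were called for the wild-type colon and 0.718% for that of knockout mice.

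**Figure D3:**
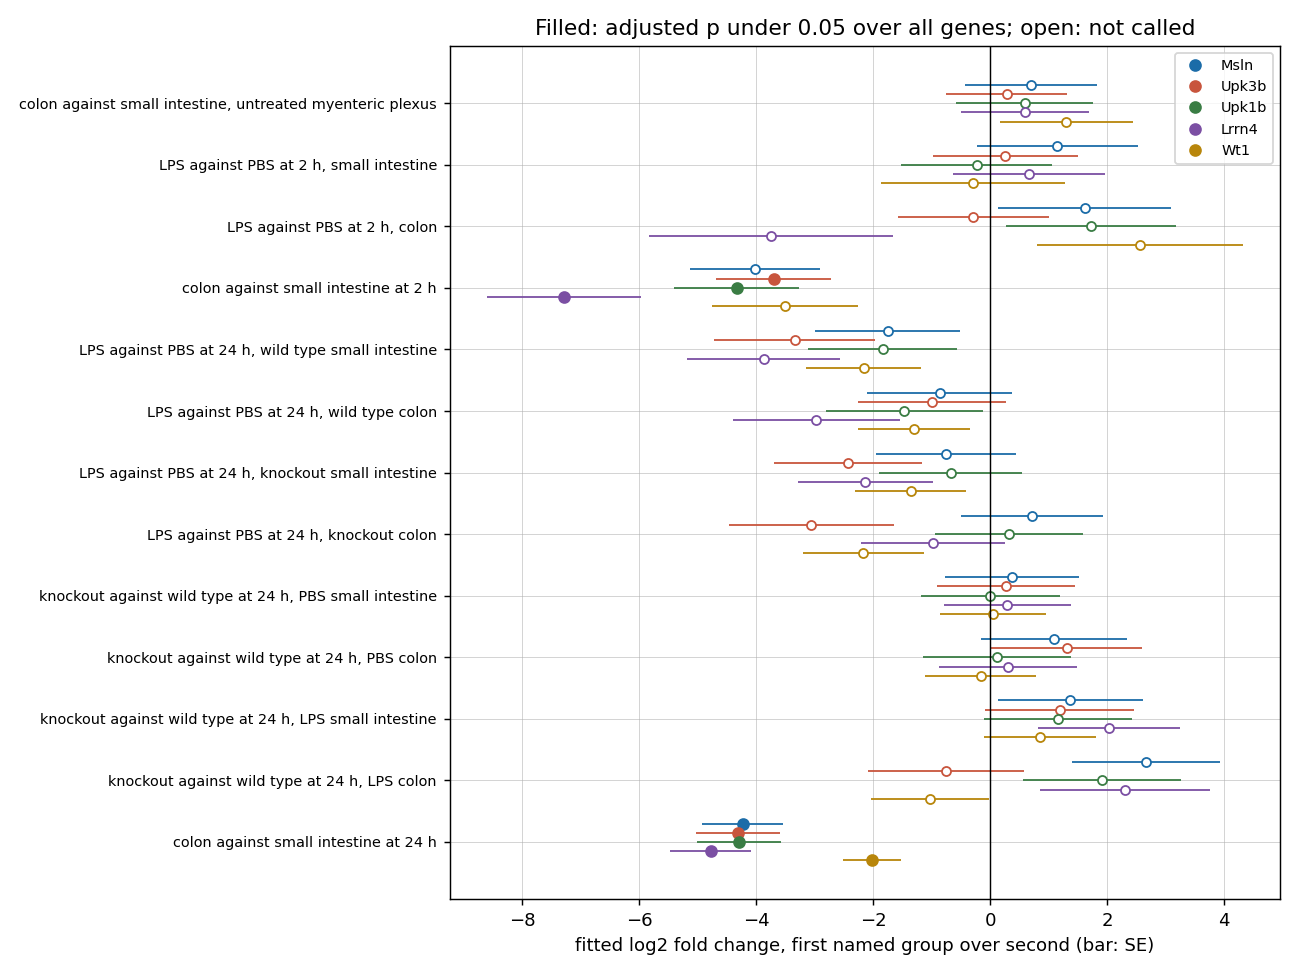
Fitted log2 fold change (point) with its SE (bar) of each gene in each tested myenteric comparison other than the genotype by LPS interactions. The first group is named over the second, and filled points have an adjusted p under 0.05 over all genes (edgeR). The filled points are the 5 genes for the colon against the small intestine at 24 h and 3 of them at 2 h.

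Because library scaling cannot change a ratio of counts within a library, each gene was also expressed per Msln count in the small intestine at 24 h. Upk3b counts per Msln count ran from 0.955 to 1.58 in 6 wild-type PBS libraries and from 0.243 to 0.898 in 4 wild-type LPS libraries. In knockout mice they ran from 1.10 to 1.66 in 4 PBS libraries, mouse 7 included, and from 0.237 to 0.689 in 5 LPS libraries. The groups were apart in both genotypes, so Upk3b was lower relative to Msln after LPS in all 9 LPS libraries than in any of the 10 PBS libraries of its genotype. Of all other genes, 0.49% in wild-type and 0.262% in knockout mice were lower per Msln count without overlap.

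Lrrn4 per Msln ran from 0.250 to 0.688 after PBS and from 0.0578 to 0.235 after LPS in wild-type mice, without overlap, and from 0.302 to 0.587 and from 0.115 to 0.345 in knockout mice, where the groups overlapped. Upk1b per Msln overlapped fully: 0.313 to 0.583 after PBS and 0.311 to 0.571 after LPS in wild-type mice. At 2 h, Upk3b per Msln was 1.02 to 2.21 after PBS and 0.833 to 1.23 after LPS, with overlap. The ratio shows unequal change among these genes, not which of them stayed level; it was formed after the levels had been seen and carries no test.

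**Figure D4:**
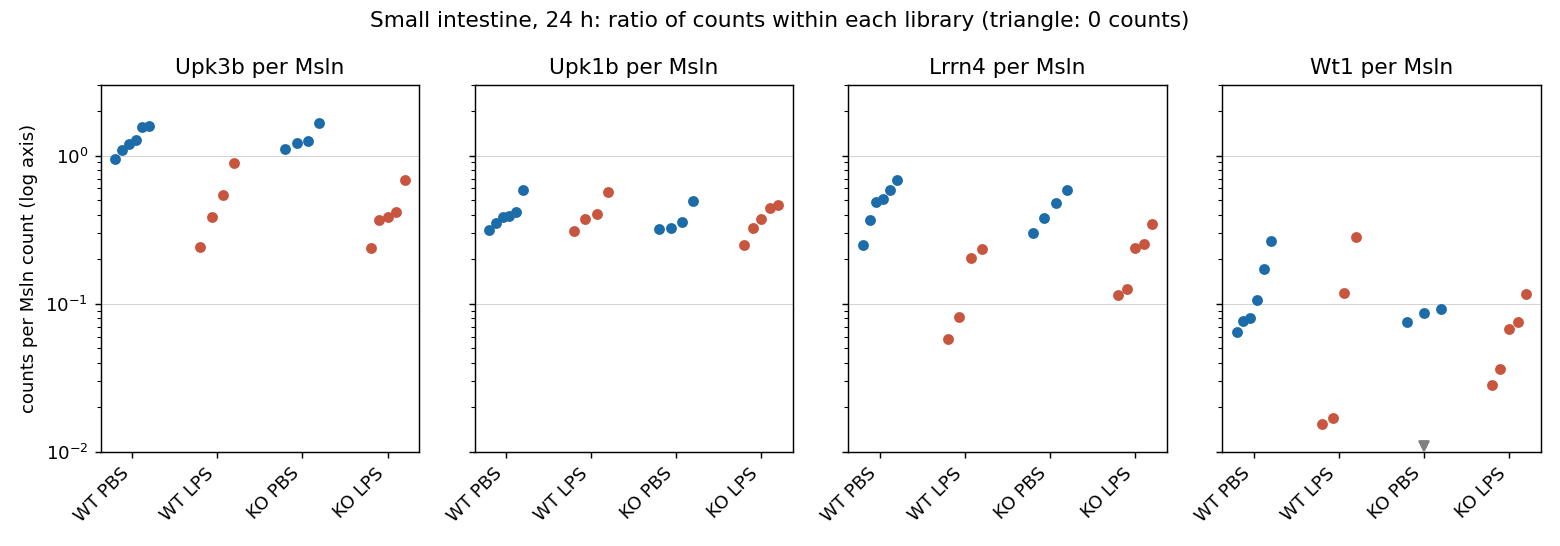
Counts of Upk3b, Upk1b, Lrrn4 and Wt1 per count of Msln in each small intestine library at 24 h, on a logarithmic axis, blue after PBS and red after LPS (triangle: 0 counts). Upk3b lies lower after LPS in wild-type (WT) and knockout (KO) mice without overlap, and Upk1b does not separate.

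Beside these changes, 4 of the 18 other mesothelial genes were called lower after LPS in the wild-type small intestine and none higher: Nkain4 (-3.94 ± 0.81, adjusted p = 0.0018), Rspo1 (-3.54 ± 0.78, adjusted p = 0.0045), Gpm6a (-3.22 ± 0.85, adjusted p = 0.016) and Efemp1 (-2.12 ± 0.62, adjusted p = 0.032). The list's median was -2.11 against -0.13 over all genes. Nkain4 went from between 144 and 290.0 CPM after PBS to between 4.19 and 19.1 CPM after LPS. The fibroblast collagens Col1a1 and Col1a2 were also lower, and the 5 fibroblast markers summed to between 1422 and 10439 CPM after PBS and between 627.4 and 8969 CPM after LPS. Of 6 glial markers Gfap was called higher (2.58 ± 0.63) and Fabp7 lower (-3.84 ± 0.95), with a median of -1.16. All 4 neutrophil markers rose, from sums of 0 to 1.09 CPM to sums of 7.41 to 811.9 CPM. The part of these cell types in the result was not tested. In the knockout small intestine none of the 18 genes was called, beside 0.188% of all genes called lower, with a list median of -1.40 against -0.05 over all genes.

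In the wild-type colon, too, 4 of the 18 genes were called lower after LPS and none higher: Nkain4 (-2.90 ± 0.74, adjusted p = 0.014), Efemp1 (-2.80 ± 0.62, adjusted p = 0.0053), Rspo1 (adjusted p = 0.0003) and Pkhd1l1 (adjusted p = 0.017). Rspo1 was at 1.16 to 11.7 CPM in 4 PBS libraries and had 0 counts in 5 LPS libraries, at least 10.8-fold lower. Of all genes, 4% were called lower, and the list's median was -0.24 against -0.03 over all genes. Col1a1 (-3.18 ± 0.73) and Col1a2 (-2.76 ± 0.63) were called lower as well. Of 6 glial markers Fabp7 was called lower (-2.67 ± 0.86) and none higher, with a median of 0.38. In the same libraries the 5 fibroblast markers summed to between 11133 and 19267 CPM after PBS and between 339.2 and 8583 CPM after LPS; their part in the result was not tested. None of the 18 was called after LPS in the knockout colon, beside 0.0805% of all genes called lower, with a list median of -0.94 against -0.07 over all genes.

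Genotype made no difference to the 5 genes that passed the test. Knockout was set against wild type in each of the PBS and LPS groups of both regions, and 0 of 5 genes were called in any of the 4 comparisons, by edgeR or DESeq2; Msln in the colon after LPS was the only one with an unadjusted p under 0.05, beside 16.4% of all genes. Of all genes, 0% were called after PBS in either region, 0.0134% after LPS in the small intestine and 0.429% after LPS in the colon. The largest estimates in the small intestine were after LPS, where Lrrn4 was 30.7, 84.5, 64.8, 48.8 and 87.5 CPM in knockout mice (mice 11, 17, 10, 6 and 21) against 14.1, 7.20, 16.7 and 24.2 CPM in wild-type mice (2.03 ± 1.21, adjusted p = 0.76). Upk3b was likewise higher in every knockout library (1.19 ± 1.28, adjusted p = 0.92). These 2 of 5 genes stand beside 1.23% of all genes that were higher in the knockout without overlap. Msln was higher on average by 1.37 ± 1.25, with overlapping groups. After PBS the small intestine estimates lay between 0.00 ± 1.18 for Upk1b and 0.37 ± 1.15 for Msln. In the colon after LPS the median over the 5 genes was 1.91 and became -1.19 without the library of mouse 17. That library had 81.4 CPM of Msln and 37.5 CPM of Upk1b, against 79.9 and 0.268 CPM in knockout mouse 2. Over single left-out libraries the estimate ran from 2.11 to 3.19 for Msln, from -1.66 to 3.38 for Upk1b and from -3.32 to 1.15 for Upk3b. Of the 18 other mesothelial genes, Rspo1 alone was called between genotypes, in the colon after LPS (adjusted p = 0.0066, edgeR): it had 4.34 to 10.3 CPM in 4 knockout libraries and 0 counts in 5 wild-type libraries, so it was at least 8.94-fold higher in the knockout. Its genotype by LPS interaction was not called (adjusted p = 0.12).

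The genotype by LPS interaction was tested for 5 genes in 2 regions, and 0 of 10 tests had an unadjusted p under 0.05, beside 3.88% of all genes for small intestine and 13.5% for colon, with 0% of all genes called in either region; with standard errors of 1.32 to 1.87 on the log2 scale, differences of a few fold could not be detected.

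Per kilobase of exon, the levels in the wild-type PBS small intestine followed the order Upk3b (159 CPM per kb), Msln (142), Upk1b (90.2), Lrrn4 (61.3) and Wt1 (7.46). Upk3b and Msln overlap in their range over libraries, and Wt1 was the lowest in each myenteric small intestine group. Over the 16 groups, Msln had its highest means in the small intestine at 24 h: 563 ± 425 CPM (SD, n = 4) in knockout PBS, 436 ± 250 (n = 6) in wild-type PBS and 335 ± 154 (n = 5) in knockout LPS mice. Next came the small intestine after 2 h of LPS (242 ± 257, n = 4), wild-type LPS at 24 h (129.6 ± 76.7, n = 4) and 2 h of PBS (109 ± 25.1, n = 4), then untreated colon (83.9 ± 134, n = 5) and untreated small intestine (51.8 ± 61.7, n = 6). The treated colon groups followed, from 42.1 ± 44.6 CPM (n = 4, knockout LPS) down to 5.92 ± 11.8 CPM (n = 4, PBS at 2 h), and the submucosal groups closed the order at 0. Each step down to the last treated colon group was smaller than the larger SD of the neighbours. The 3 experiments share no libraries, so the order across them also carries differences between experiments.

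Across myenteric libraries the 5 genes varied together after group means were removed. The correlation of log2 CPM between pairs of the 5 genes had a median r of 0.88 over 11 untreated libraries, 0.68 over 16 libraries at 2 h and 0.56 over 37 libraries at 24 h. The closest pair was Msln and Upk3b in untreated mice (r = 0.98), Msln and Upk1b at 2 h (r = 0.96) and Upk1b and Lrrn4 at 24 h (r = 0.82); the loosest was Upk1b and Wt1 at 24 h (r = 0.21). These values are descriptions: the points share library depth and cell composition, and many are at or near 0 counts in the colon.

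The genes outside the set whose pattern was most like the mean of the 5, by the lowest of the 3 r values, were Rspo1 (0.84), Slpi (0.80), Cdh3 (0.75), C3 (0.66), Cfb (0.64), Igfbp6 (0.62), Atp6v0a4 (0.58), Gpm6a (0.58), Crls1 (0.52) and C2 (0.52), out of 12726 genes with a median of -0.23. Slpi encodes a secreted protease inhibitor, Cdh3 the adhesion protein P-cadherin, and C2, C3 and Cfb complement proteins. Rspo1 and Gpm6a were also in the list of 18 mesothelial genes, and Crls1 is the converging neighbour of Lrrn4. Of these 10 genes, which were picked by r in the same myenteric libraries, 9 were called lower in the colon at 24 h and 3 at 2 h. C3 was the exception at 24 h (-1.03 ± 0.36, adjusted p = 0.073, edgeR). Of all genes, 5.16% were called lower at 24 h and 2.07% at 2 h. After LPS in the wild-type small intestine at 24 h, 3 were called lower (Rspo1, Gpm6a and Crls1), beside 2.99% of all genes. Cfb had an estimate there of 1.88 ± 0.74 (adjusted p = 0.12, edgeR) and Slpi of -0.22 ± 1.05. In the wild-type colon 2 were called lower after LPS (Rspo1 and Igfbp6) and 2 higher, beside 7.96% of all genes called. The higher ones were C2 (2.83 ± 0.74, adjusted p = 0.017, edgeR) and Cfb (4.00 ± 0.91, adjusted p = 0.0066). In the knockout colon Cfb alone was called, and was higher (3.82 ± 0.84, adjusted p = 0.019, edgeR), beside 0.718% of all genes called. None was called in the knockout small intestine. In the layer comparison 3 of the 10 were higher in myenteric colon (Rspo1, Gpm6a and Igfbp6) and 4 in myenteric small intestine (these and Atp6v0a4), with Cfb lower there. Of all genes, 11.1% were called higher in the colon, and 21.2% higher and 22.3% lower in the small intestine.

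**Figure D5:**
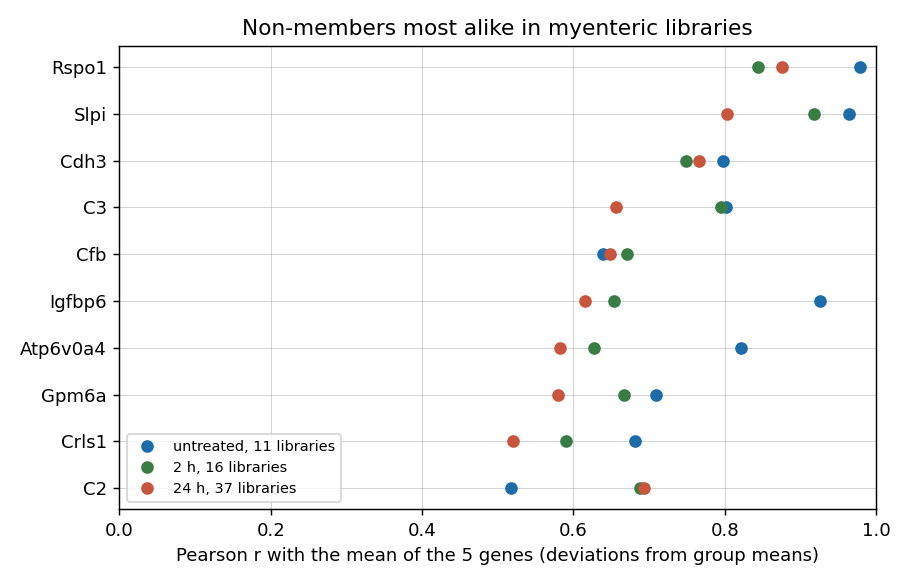
Pearson r between log2 CPM of each named gene and the mean of the 5 genes, as deviations from group means, in the myenteric libraries of each experiment (11, 16 and 37 libraries). Rspo1 and Slpi keep r at or above 0.80 in all 3 experiments.

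Close relatives of the 5 genes were measured in the same libraries, and Upk2, Mslnl and Upk3bl were at or near 0 in most of them. Upk2, a bladder uroplakin, had at most 1 count in any library, and Mslnl, the mesothelin-like neighbour on the other strand whose end lies 282 bases from that of Msln, had at most 11. Upk3bl, which lies 8004 bases from Upk3b, had 0 counts in every small intestine library at 2 h and in those of wild-type mice at 24 h and reached 37 counts in a submucosal colon library. Upk1a, another tetraspanin uroplakin, was at 1.52 to 8.73 CPM in the submucosal colon and at 0 to 0.175 CPM in the myenteric colon. Of the 10 relatives listed, Lrrn1, a leucine-rich repeat gene of the same family as Lrrn4, was called lower in the colon in all 3 experiments: by -5.84 ± 1.36 in untreated myenteric libraries (adjusted p = 0.026), by -5.17 ± 1.38 at 2 h (adjusted p = 0.047) and by -2.49 ± 0.73 at 24 h (adjusted p = 0.030). Lrrn1, Lrrn2 and Lrrn4cl were called higher in myenteric than in submucosal small intestine, and in the colon, where 5 of the 10 relatives were tested, none was called higher and Upk1a was called lower. Lrrn4cl, a gene named for its likeness to Lrrn4, was called higher in the colon in untreated myenteric libraries (3.34 ± 0.76 in log2 fold change, adjusted p = 0.020, edgeR), where the Lrrn4 estimate of 0.60 was not called. At 24 h the regional estimate of Lrrn4cl was 0.32 ± 0.39 (adjusted p = 0.74); the difference between the 2 genes was not tested. Wt1os had group means of at most 4.69 CPM.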

How the data were processed

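The labels' protocols name an RNA micro-column extraction and in-house Smart-seq2 libraries. Per the submitters' processing notes, Trim Galore 0.4.4, STAR 2.5.3 and DESeq2 were used, with build GRCm38; the counter and its strand setting are not given in the sources used here. The authors deposited raw counts per gene in 2 tables. All columns were matched to a sample.

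edgeR 4.0.16 (R 4.3.3) quasi-likelihood tests were run per experiment on all groups, with TMM scaling, filterByExpr and Benjamini-Hochberg adjustment; 14090 (untreated), 13107 (2 h) and 14903 (24 h) genes were tested, all 5 members among them. The pipeline was tested on simulated counts. DESeq2 1.42.0, other size factors, no filter, sex, blocks, fewer groups and leaving out each library were alternatives. Log2 CPM used a prior count of 2.

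At 24 h the mouse numbers in the labels pair regions: deviations of the 15 pairs correlated with a mean r of 0.12, and over 0.1 in 10 of them.

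The members, lists and tests were chosen with earlier results of these data known. Named genes were the 5 members, lists of mesothelial genes, relatives and cell type markers, and the 10 non-members with the highest minimum r, leaving out predicted genes.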

Additional observations from a re-analysis of the deposited data

Results flagged for a closer look

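The highest or lowest library of a group stood apart from the others by Dixon's criterion in 12 of 71 sets of values tested; chance gives about 1 in 20 for independent sets. These sets are not independent, since several genes share each library, and in 4 of the 12 the other 3 libraries were all at 0. In the knockout PBS small intestine at 24 h, mouse 7 was low, with 7.01 CPM of Msln (next library 469 CPM), 3.44 CPM of Upk1b (next 150 CPM) and 0 CPM of Wt1 (next 40.8 CPM). In the knockout PBS colon, mouse 20 was low, with 0 CPM of Msln (next 26.4 CPM), 0 CPM of Upk3b (next 19.9 CPM) and 1.78 CPM of Wt1 (next 11.5 CPM), while its small intestine library had 469 CPM of Msln. In the knockout LPS colon, mouse 17 was high, with 15.5 CPM of Upk3b (next 0.843 CPM). In the PBS colon at 2 h, F3 was the only library with counts of Msln (23.7 CPM), Lrrn4 (12.0 CPM), Upk1b (10.7 CPM) and Wt1 (2.67 CPM). In the untreated submucosal colon, F3 had 0 CPM of Upk1b, against 2.22 CPM or more in the other 4 libraries.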

How the results depend on the processing

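No result changed sign with a call. After LPS in the wild-type small intestine at 24 h the count of members called was 0 in the fit over all groups, 3 with only the groups compared and 1 with DESeq2, while 2.99%, 5.23% and 6.94% of all genes were called lower; the cause was not tested. The 2 h regional count, 3 beside 2.07% of all genes, ranged from 1 to 4 over single left-out libraries. It was 2 beside 2.24% with the replicate block (Upk3b adjusted p = 0.058), Upk3b was also lost with sex as a covariate (0.054), Msln was gained without the filter (0.041) and Wt1 with DESeq2 (0.033), which called 4.76% of all genes lower. The 24 h regional count stayed at 5 in all 37 such fits, and neither the division of mouse numbers at 10 and 11 as a covariate nor mice numbered 11 and above alone changed any count of members called. This division is not balanced over treatment. In the wild-type colon the LPS group held mice 3, 5 and 8 below it, and the PBS mice (14, 19, 22 and 24) were all above it. Calls of genes other than the members were not rechecked under this division. The layer count without overlap ranged from 1 to 4 in the colon (7.74% to 10.8% of all genes) and from 3 to 4 in the small intestine (12.4% to 13.8%). The untreated and 2 h labels share only a number: same-label libraries correlated with mean r of 0.093 (10 of 30 pairs over 0.1) and 0.060 (5 of 24), and the block turned the untreated regional median to -0.36 and the 2 h LPS median in the small intestine to -0.61, with 0 calls in each. No paired analysis was possible for LPS and genotype at 24 h because no mouse is in both groups. Depth limits the colon and submucosal values, many of which rest on 3 counts or fewer.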
